A study of Homo sapiens with 12 samples.

Results

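CEACAM1, CEACAM5, CEACAM6, CEACAM7 and CEACAM19, 5 genes of the carcinoembryonic antigen (CEA) family, were followed among the 60623 genes measured by RNA-seq in A549, a human lung adenocarcinoma cell line. The genes were selected by symbol from the table of expected counts, with earlier results on the same libraries known, so their levels and differences between lines are given as a description and without a test of their own. All 5 were in the table. A549 cells had been infected with lentivirus carrying an empty vector (line V), HA-tagged wild-type AHR (WT), or HA-tagged AHR with the change S489A (SA) or S489D (SD), under the EF1a promoter of the vector, and selected with hygromycin. AHR is the aryl hydrocarbon receptor, a ligand-activated transcription factor. S489A removes the serine that the kinase PLK1 phosphorylates, S489D mimics its phosphorylation, and the comparison of the lines asks which transcripts differ with the state of that residue. Each line gave 3 libraries (12 in all) that the labels call biological replicates. Nothing says that they came from separate cultures, so the spread between them may be technical, and since 1 line stood for each construct, the effect of a construct and chance differences of its line cannot be told apart.

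CEA family proteins are cell surface glycoproteins of the immunoglobulin superfamily that mediate adhesion between cells and bind bacterial adhesins. CEACAM1 spans the membrane and signals through inhibitory tyrosine motifs in its cytoplasmic tail, whereas CEACAM5 (CEA itself, the tumor marker), CEACAM6 and CEACAM7 are held in the membrane by a glycosylphosphatidylinositol (GPI) anchor. CEACAM5 and CEACAM6 are frequently overexpressed in carcinomas, including lung adenocarcinoma, and CEACAM7 is mostly a protein of colon and pancreatic epithelium. CEACAM19 is a less studied transmembrane member.

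All 5 genes lie on chromosome 19 of GRCh38. CEACAM7 (ENSG00000007306, minus strand, 41673303 to 41706976), CEACAM5 (ENSG00000105388, plus strand, 41708585 to 41729798) and CEACAM6 (ENSG00000086548, plus strand, 41750977 to 41772211) are neighbours. CEACAM1 (ENSG00000079385, minus strand, 42507304 to 42561234) and CEACAM19 (ENSG00000186567, plus strand, 44662278 to 44684359) lie farther along the chromosome. The promoters of CEACAM6, CEACAM5 and CEACAM1 are printed here, because CEACAM6 and CEACAM5 share an E-box at almost the same place and CEACAM1 lacks it. Each is the 250 bases upstream of the RefSeq start on GRCh38.p14, read on the strand of the gene. Capitals mark the E-box CACGTG, the GC box GGGCGG (or its reverse complement) and the TATA box TATAAA, searched on both strands.

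CEACAM6, chr19:41755280-41755529, plus strand: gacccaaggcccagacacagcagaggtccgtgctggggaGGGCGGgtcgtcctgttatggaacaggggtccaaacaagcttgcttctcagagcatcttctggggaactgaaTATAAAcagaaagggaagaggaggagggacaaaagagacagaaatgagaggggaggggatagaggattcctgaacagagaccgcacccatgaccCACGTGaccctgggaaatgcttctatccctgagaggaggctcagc

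CEACAM5, chr19:41708376-41708625, plus strand: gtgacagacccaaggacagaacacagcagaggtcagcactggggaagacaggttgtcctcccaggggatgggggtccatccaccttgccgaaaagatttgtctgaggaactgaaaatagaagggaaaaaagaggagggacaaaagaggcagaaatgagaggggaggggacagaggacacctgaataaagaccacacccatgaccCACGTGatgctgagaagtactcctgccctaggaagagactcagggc

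CEACAM1, chr19:42528482-42528731, minus strand: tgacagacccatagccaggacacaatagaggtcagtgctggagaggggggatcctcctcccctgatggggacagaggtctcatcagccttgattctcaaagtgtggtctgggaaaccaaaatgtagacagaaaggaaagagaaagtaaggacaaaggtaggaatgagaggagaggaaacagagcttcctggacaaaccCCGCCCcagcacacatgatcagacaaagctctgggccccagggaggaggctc

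The E-box, a site bound by upstream stimulatory factors among others, began 45 bases upstream of the start in CEACAM6 and 46 in CEACAM5. CEACAM6 also held a TATA box 139 bases and a GC box 211 bases upstream, and CEACAM1 held a GC box on the strand opposite to the gene 52 bases upstream. The core of the AHR response element, GCGTG, was in none of the promoters of CEACAM1, CEACAM5, CEACAM6 and CEACAM7 on either strand. Of all 35116 promoters of this length, 6.34% held the E-box, 42.6% the GC box, 10.7% the TATA box and 32.2% the response element core. None of the motifs overlapped another in these windows, and a match is a description of letters, not of a bound site. The promoter of CEACAM7 held none of the 4 motifs. Promoters of the adjacent genes were the most alike, at 80.5% identical aligned positions between CEACAM5 and CEACAM7, 79.0% between CEACAM6 and CEACAM7 and 73.6% between CEACAM5 and CEACAM6, against 64.4% to 70.0% between CEACAM1 and these 3. These windows lie inside or next to the deposited gene spans, which also hold longer transcripts with other starts. The table of promoters has no entry for CEACAM19.

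The libraries held 7844045 to 11765576 expected counts, and 27942 of the genes had a count. A limit of 3 counts corresponds to 0.255 to 0.383 CPM (counts scaled to the TMM-normalized library size) in a library, and covers counting error only, since no molecular identifiers are described. AHR was higher in the lines labelled as carrying it than in V, which had the endogenous transcript. Its level does not show which residue a line carries, so it is no check of the labels WT, SA and SD against each other. Summed over AHR and ENSG00000283321, a gene that overlaps it, V stood at 69.1 ± 4.51 CPM (mean ± standard deviation, n = 3 libraries, as for all means of a line), WT at 469 ± 16.4, SA at 393 ± 18.9 and SD at 296 ± 8.16. The epithelial keratins KRT8 and KRT18 were abundant in every line. Of the other epithelial markers, CDH1 had line means of 112 to 170 CPM and CLDN4 of 9.60 to 11.2 CPM. EPCAM and KRT19 were scarce, with line means of 0.724 to 1.46 and 0.109 to 0.347 CPM. Of 6 alveolar markers, NAPSA alone was above 1 CPM, and NKX2-1 and the surfactant genes were at or near 0. Some of the epithelial genes thus bore out an epithelial cell type, which is not particular to lung. The label of lung tissue was not borne out by the alveolar genes.

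Of the 5 members, CEACAM6 was the most abundant per transcript length, CEACAM19 and CEACAM1 followed, and CEACAM5 and CEACAM7 had 3 counts or fewer in every library. CEACAM6 gave 4268 counts over the 12 libraries, CEACAM19 1813, CEACAM1 303, CEACAM5 16 and CEACAM7 1. On the scale of CPM per kilobase of the canonical transcript, V had 22.2 for CEACAM6, 7.28 for CEACAM19 and 0.648 for CEACAM1. In SD the mean of CEACAM6 on this scale was 6.59, close to the 6.45 of CEACAM19. By counts not corrected for transcript length, CEACAM6 took 75.6% of those of the 5 genes in V, and 68.0%, 63.7% and 50.5% in WT, SA and SD.

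**Figure D1:**
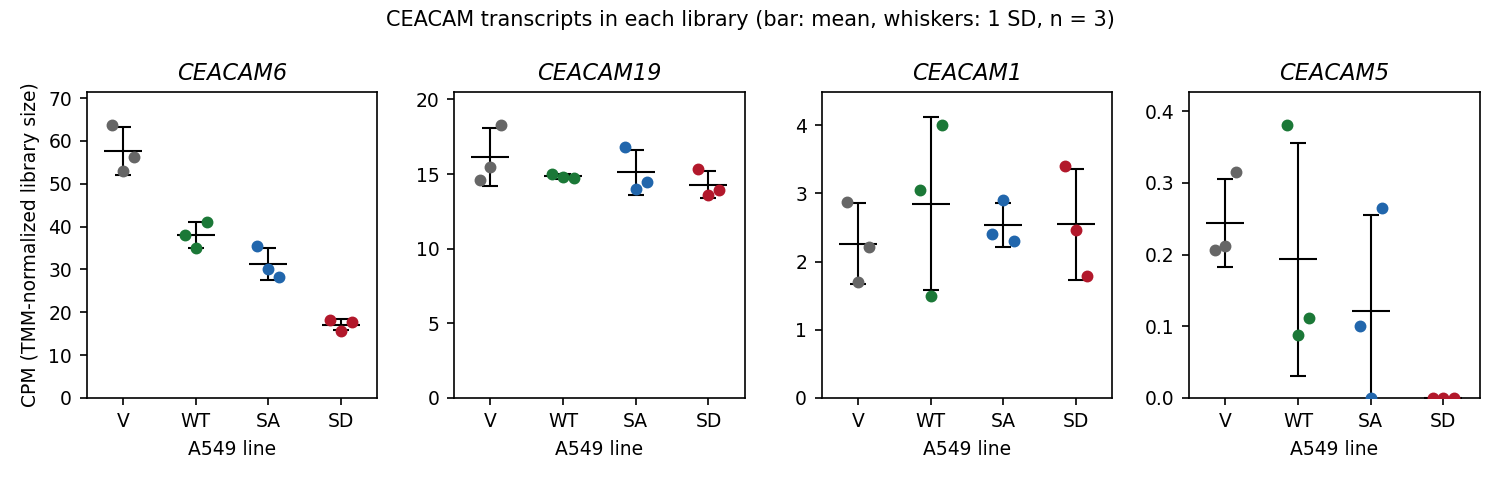
CPM (linear axis from 0, TMM-normalized library size) of 4 members in each library, by A549 line. Points are libraries, the horizontal bar is the mean and the whiskers are 1 standard deviation (n = 3). CEACAM6 stepped down from 57.6 CPM in V to 17.1 in SD, CEACAM19 and CEACAM1 overlapped between all lines, and CEACAM5 had no count in SD.

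CEACAM6, a GPI-anchored adhesion molecule that is linked to resistance of carcinoma cells to anoikis (death on loss of anchorage), was the member that differed between lines. The V libraries stood at 63.8, 52.9 and 56.2 CPM, the WT libraries at 38.0, 34.9 and 41.1, the SA libraries at 35.5, 30.1 and 28.2 and the SD libraries at 18.1, 15.6 and 17.6. The 3 V libraries were above all the others, the 3 SD libraries were below all the others, and WT and SA overlapped. The mean of V was 57.6 ± 5.55 CPM, that of WT 38.0 ± 3.08, that of SA 31.2 ± 3.79 and that of SD 17.1 ± 1.37, so that WT, SA and SD had 65.9%, 54.2% and 29.7% of the V level. The order of the means was thus V, WT, SA and SD, and only the libraries of the neighbours WT and SA overlapped.

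Between the AHR lines, the log2 fold change of CEACAM6 was -1.15 in SD against WT (standard error 0.10, 95% interval -1.36 to -0.93). It was -0.86 in SD against SA (standard error 0.11, 95% interval -1.09 to -0.63) and 0.28 in WT against SA (standard error 0.10, 95% interval 0.08 to 0.48). Ordered from the most negative fold change, CEACAM6 was number 20 of the 14828 genes tested in the first of these pairs and number 87 of 15030 in the second. The SD line, which has the phosphomimetic residue, thus had less CEACAM6 than either WT or SA.

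Against the empty vector, CEACAM6 differed by log2 fold changes of -0.61 in WT (standard error 0.08, 95% interval -0.78 to -0.43), -0.89 in SA (standard error 0.09, 95% interval -1.07 to -0.70) and -1.75 in SD (standard error 0.10, 95% interval -1.95 to -1.55). CEACAM6 was number 467 of 14772 from the bottom in WT, number 186 of 14913 in SA and number 13 of 14890 in SD. These comparisons share the V libraries. Among the 3 AHR lines, the mean of CEACAM6 had the same order as that of the AHR transcript (WT, SA, SD), whereas V had the least AHR and the most CEACAM6. The part of the AHR level in the CEACAM6 difference was not tested.

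CEACAM19 was nearly level across the lines. The V libraries stood at 14.6, 15.5 and 18.3 CPM, the WT libraries at 14.99, 14.8 and 14.7, the SA libraries at 16.8, 14.0 and 14.5 and the SD libraries at 15.3, 13.6 and 13.9. All 4 lines overlapped. The log2 fold changes ranged from -0.17 in SD against V (95% interval -0.45 to 0.10) to -0.02 in WT against SA (95% interval -0.28 to 0.24), and every interval covered 0.

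CEACAM1, the inhibitory transmembrane receptor, was scarce. Its V libraries were at 2.88, 1.70 and 2.21 CPM, WT at 3.05, 1.49 and 4.01, SA at 2.40, 2.90 and 2.30 and SD at 3.40, 2.47 and 1.78, from 16 to 36 counts in a library. The 4 lines overlapped. The log2 fold changes ranged from -0.14 in SD against WT (95% interval -0.91 to 0.63) to 0.30 in WT against V (95% interval -0.45 to 1.06), and every interval covered 0. The interval of SD against WT does not reach the -1.15 of CEACAM6 in that pair, and smaller differences were not detectable at this depth. LIPE-AS1 runs on the opposite strand across CEACAM1 and had 311 counts, and because the strand setting of the counting is not stated, reads of the pair cannot be told apart where they overlap.

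The V libraries had 2, 2 and 3 counts of CEACAM5, the WT libraries 3, 1 and 1, the SA libraries 1, 0 and 3 and the SD libraries none. Over the 3 libraries of a line this was 0.244 CPM in V (exact Poisson 95% interval 0.0982 to 0.503), 0.178 in WT (0.0576 to 0.414) and 0.121 in SA (0.0330 to 0.310). The limit that 0 counts in the 3 SD libraries allow is 0.0980 CPM. The intervals of WT and SA reach below that limit and that of V begins just above it. With every gene that had a count tested, CEACAM5 did not pass in SD against V (adjusted p = 0.303, edgeR's quasi-likelihood test). No difference of CEACAM5 between SD and another line was thus resolved at this depth. CEACAM7 had 1 count in all, in SD replicate 3.

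Of the 5 members, 3 (CEACAM1, CEACAM6 and CEACAM19) passed the filter on low counts in every pair of lines. By edgeR's quasi-likelihood test at an adjusted p under 0.05, 1 of them (CEACAM6, lower in the first line named) was called in SD against WT, where 0.708% of all genes tested were called. The same gene was called in SD against SA, where 0.220% were. None was called in WT against SA (0.0803% of all genes). Against V, CEACAM6 was again the 1 member called, lower in WT (5.24% of all genes called), in SA (7.17%) and in SD (5.41%). The libraries of the lines did not overlap for CEACAM6 in the same 5 pairs, which was so for 16.0% of all tested genes in SD against WT, 13.7% of those in SD against SA, 21.9% in WT against V, 23.8% in SA against V and 21.4% in SD against V. For WT against SA the share was 12.8%, and no member was among these genes. Because these contrasts were known when the genes were chosen, nothing is read from the counts.

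**Figure D2:**
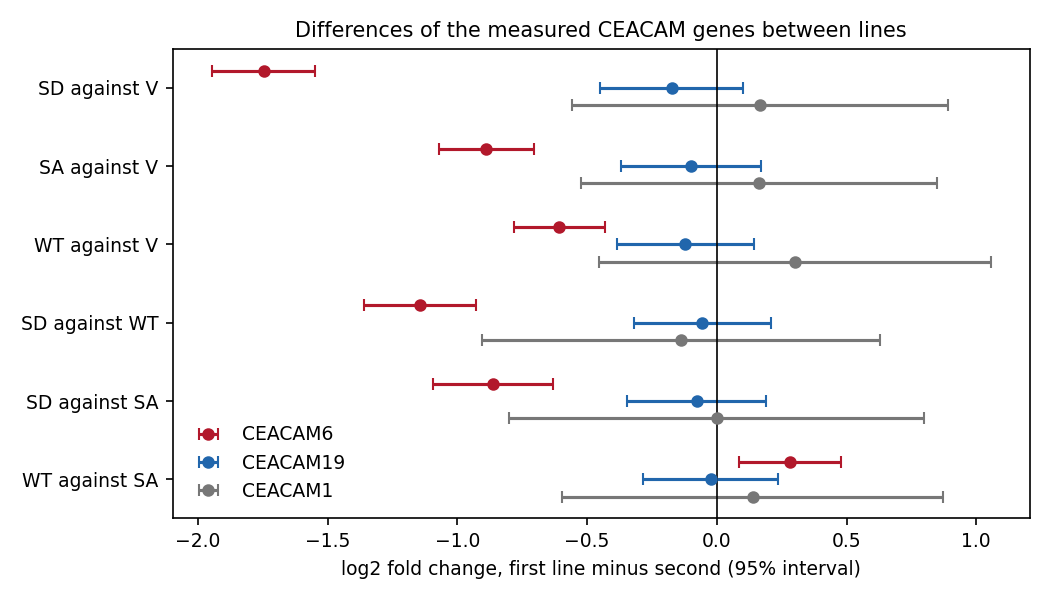
Log2 fold change (first line minus second, horizontal axis) of the 3 members with enough counts, for each pair of lines, with 95% intervals from edgeR. CEACAM6 lay below 0 in 5 pairs, from -1.75 in SD against V to -0.61 in WT against V, and at 0.28 in WT against SA, while all intervals of CEACAM19 and CEACAM1 cover 0.

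Family members share sequence, which could move reads among them. Of the 31-base words in CEACAM6 transcripts, 14.8% also occur in transcripts of other genes, with 6.39% in CEACAM5 and 4.27% in CEACAM1. RSEM divides reads that fit several genes, and 3.24% to 3.61% of a library's values had a fraction. Those of all 5 members were whole in all 12 libraries. The summed counts of the 3 libraries in V and SD were 1653 and 524 for CEACAM6, 65 and 77 for CEACAM1 and 7 and 0 for CEACAM5, and the part of shared reads in these values was not tested. CEACAM19 shares its strand and part of its span with PVR, a nectin-like receptor with 22919 counts, and 1.73% of its 31-base words.

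The rest of the family was hardly transcribed in these cells. Of the 7 other CEACAM genes, CEACAM3, CEACAM4, CEACAM8, CEACAM18 and CEACAM21 had no count in any library, CEACAM16 had 11 counts over 12 libraries and CEACAM20 had 2. CEACAM3 and CEACAM8 are receptors of granulocytes. Of the 10 pregnancy-specific glycoprotein genes (PSG, the secreted placental branch of the family), PSG4 had 14 counts, PSG1 13 and PSG5 11, and the other 7 had at most 2 each. None of these genes had enough counts to be tested. Of 6458 counts for the 22 genes, 4268 were of CEACAM6.

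**Figure D3:**
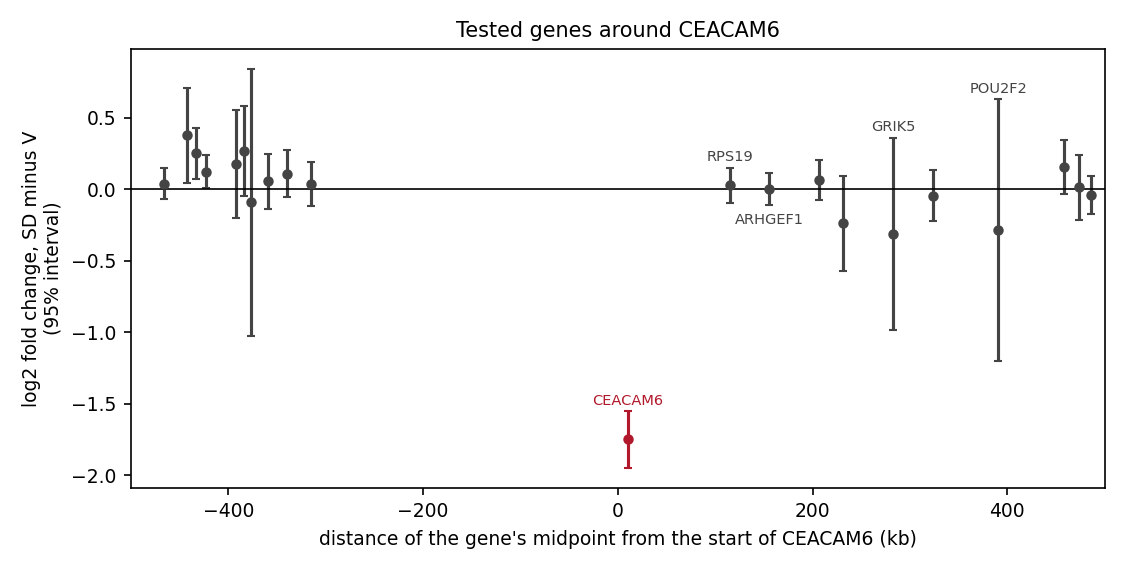
Log2 fold change of SD minus V (vertical axis, 95% intervals) for genes within 500 kb of CEACAM6 that had enough counts, against the distance of the midpoint of the gene from the start of CEACAM6 in kb. CEACAM6 stands at -1.75 while its nearest tested neighbours RPS19 and ARHGEF1 lie at 0.03 and 0.00.

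The tested genes nearest to CEACAM6 did not share its difference, but they lie 88044 to 184470 bases away. The closer members CEACAM5 and CEACAM7 had too few counts to pass the filter. The nearest genes with enough counts were RPS19, a ribosomal protein gene, ARHGEF1, an exchange factor for RhoA, and RABAC1, a Rab acceptor. In SD against V their log2 fold changes were 0.03 (standard error 0.06), 0.00 (0.05) and 0.07 (0.07), and none of them passed the test (adjusted p = 0.863, 0.998 and 0.679, edgeR's quasi-likelihood test). Within 200 kb of the 5 members there were 69 other genes, of which 17 had enough counts to be tested. Only BCAM and BCL3, both near CEACAM19, passed in any pair. BCAM, a laminin receptor, was lower in WT and in SA than in V by log2 fold changes of -0.33 and -0.22 (edgeR adjusted p = 1.28e-04 and 0.00912). The second of these calls was lost without V replicate 1 or SA replicate 2 (adjusted p up to 0.0939). BCL3, a coactivator of NF-κB, was higher in SD than in V by 0.21 (adjusted p = 0.0346), a call lost with DESeq2 and without any 1 of the V libraries, SD replicate 2 or SD replicate 3 (adjusted p up to 0.212). The median log2 fold change of the tested neighbours lay between -0.05 and 0.09 over the 6 pairs, and that of all genes at 0.00.

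Among partners and signalling proteins of the CEACAMs, the integrin subunit ITGB3 differed most. ITGB3 pairs with ITGAV, and CEACAM1 is known to associate with it. Its V libraries stood between 13.1 and 17.4 CPM, WT between 22.4 and 26.5, SA between 25.9 and 28.4 and SD between 27.5 and 35.6. Each AHR line lay wholly above V. Against V, it differed by log2 fold changes of 0.74 in WT (standard error 0.12, adjusted p = 1.73e-04), 0.85 in SA (0.12, 1.10e-05) and 1.15 in SD (0.12, 4.17e-07) by edgeR's quasi-likelihood test, and all 3 calls were kept under all 13 other settings. ITGB3 thus rose in the lines where CEACAM6 was lower. In the 3 pairs among AHR lines, ITGB3 did not pass the test.

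Of the 18 genes of this list, 17 were tested, and 3, 4 and 3 were called higher in WT, SA and SD than in V and none lower. Of all genes tested, 5.24%, 7.17% and 5.41% were called in these pairs, in either direction. The median log2 fold changes of the list were 0.06, 0.07 and 0.06 against 0.00 for all genes. The list was chosen with earlier results of these data known, so nothing is read from its counts. The other differences were small, and their log2 fold changes against V and adjusted p are from edgeR. LYN, a Src family kinase, was 0.38 higher in WT (adjusted p = 0.0114), a call lost without V replicate 1 or WT replicate 3 (up to 0.0746). CALM3, a calmodulin gene, was 0.20 higher in SA (adjusted p = 0.00738), lost without V replicate 1, V replicate 3 or SA replicate 2 (up to 0.0645). SHC1, an adaptor of receptor tyrosine kinases, was 0.22 higher in SA (0.00351) and 0.21 in SD (0.0135). The first of these calls was lost without V replicate 1 (0.0527) and the second without V replicate 1, V replicate 2 or SD replicate 2 (up to 0.132). TGFBR1, the type I receptor of TGF-β, was 0.25 higher in SA (0.0439) and 0.28 in SD (0.0344), and both calls were lost with DESeq2 and without any 1 of the V libraries. The first was also lost without SA replicate 2 or SA replicate 3 (up to 0.289) and the second with the replicate block and without any 1 of the SD libraries (up to 0.257). None of the 17 passed the test in SD against WT, SD against SA or WT against SA. The phosphatases PTPN6 and PTPN11, which bind the cytoplasmic tail of CEACAM1, had log2 fold changes of -0.17 (standard error 0.09) and -0.07 (0.06) in SD against V, and neither passed the test.

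**Figure D4:**
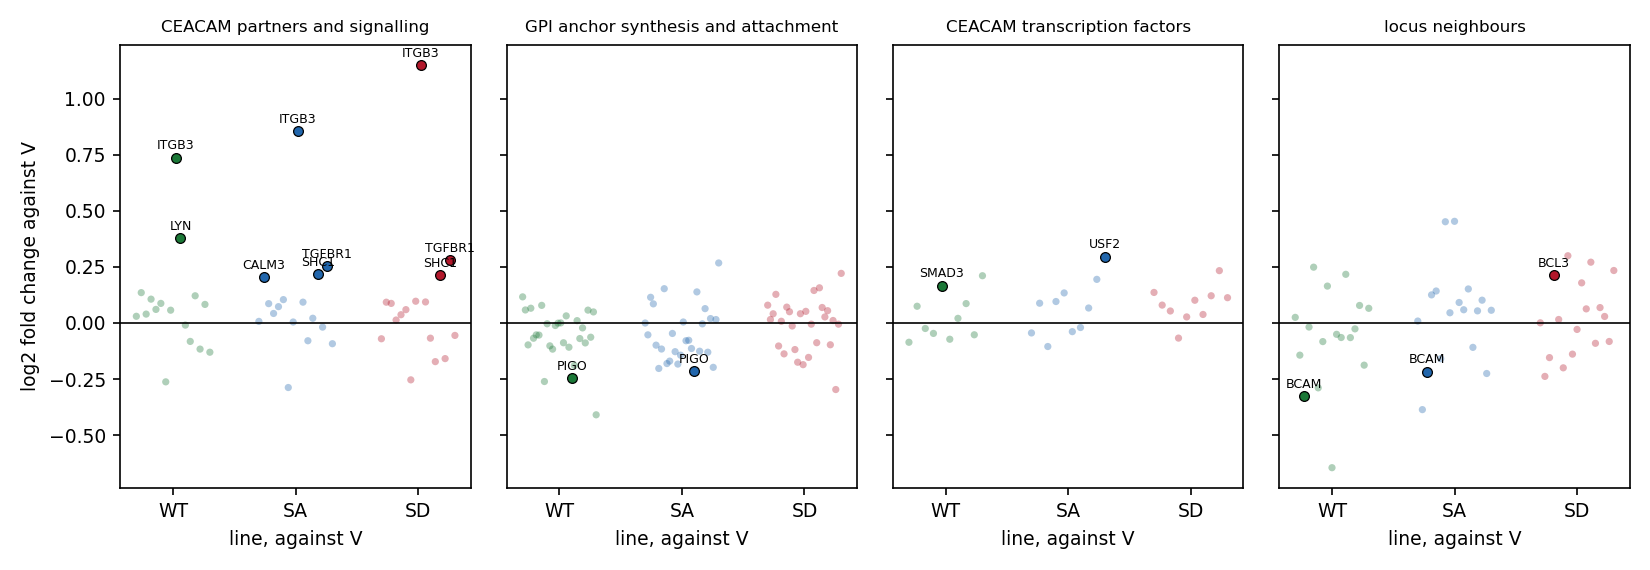
Log2 fold change against V (vertical axis) of the tested genes in 4 lists, for WT, SA and SD. Outlined and named points had an adjusted p under 0.05 by edgeR. ITGB3 stands out at 0.74, 0.85 and 1.15, and few other genes were called.

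CEACAM5, CEACAM6 and CEACAM7 need a GPI anchor to stay at the surface. Of the 28 tested genes that build or attach this anchor, PIGO, an ethanolamine phosphate transferase, was the 1 gene called, lower in WT and in SA than in V (log2 fold changes -0.25 and -0.21, edgeR adjusted p = 0.00401 and 0.0266). The call in WT was lost without WT replicate 3 (adjusted p = 0.0676), and that in SA with DESeq2 without its filter on low means and without any 1 of the V libraries, SA replicate 2 or SA replicate 3 (up to 0.217). None passed in SD against V, and none in the pairs among AHR lines. The relation of these genes to the CEACAM6 level was not tested. Of all genes tested, 5.24% were called in WT, 7.17% in SA and 5.41% in SD against V. The median log2 fold change of the list was -0.05, -0.08 and 0.01 in WT, SA and SD.

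Of 13 transcription factors linked to CEACAM promoters, 10 were tested. The share of all tested genes called was 0.708% in SD against WT, 5.24% in WT against V and 7.17% in SA against V. USF2, which binds E-boxes of the kind shown above, was higher in SA than in V with a log2 fold change of 0.30 (SE 0.06, edgeR adjusted p = 0.00312), a call kept under all 13 other settings. V stood at 86.1 ± 6.22 CPM, WT at 99.7 ± 5.72, SA at 106 ± 1.42 and SD at 92.9 ± 3.36. USF1, its partner, did not pass in SD against V (0.23, standard error 0.09, adjusted p = 0.156). SMAD3 was higher in WT than in V by 0.17 (edgeR adjusted p = 0.0141), a call lost with the replicate block and without V replicate 1 or WT replicate 1 (up to 0.110). HIF1A, the hypoxia-inducible factor, was the 1 listed gene that differed between SD and WT, with a rise of 0.22 (standard error 0.05, adjusted p = 0.0477). That call was lost with DESeq2's size factors and without any 1 of the WT libraries, SD replicate 2 or SD replicate 3 (adjusted p up to 0.283). The median log2 fold change of the list was 0.02 between SD and WT (SD minus WT) and 0.09 in SD against V.

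Of 6 epithelial markers, 5 were tested against V, and 3 of them, KRT8, KRT18 and CDH1 (E-cadherin), were lower than in V in each AHR line by edgeR's test, as CEACAM6 was. In these pairs, 5.24% (WT), 7.17% (SA) and 5.41% (SD) of all tested genes were called, and nothing is read from the count of markers. EPCAM and CLDN4 (claudin 4) passed in no pair, and the log2 fold change of CLDN4 against V was above 0, at 0.18, 0.22 and 0.13 in WT, SA and SD. In SD against V the log2 fold changes of KRT8, KRT18 and CDH1 were -0.42, -0.48 and -0.43 (edgeR adjusted p = 3.04e-06, 4.16e-07 and 3.84e-05). The summed level of the 6 markers, mostly KRT8 and KRT18, spanned 6059 to 6310 CPM over the V libraries, 4838 to 4871 over WT, 4674 to 4834 over SA and 4410 to 4638 over SD. None of them passed between the AHR lines, and CDH1 was at 126 ± 8.26 CPM in SD against 112 ± 4.24 in WT, while CEACAM6 was lower in SD. The part of the epithelial markers in the CEACAM6 difference was not tested, and fewer cells of a type and less RNA per cell cannot be told apart in bulk libraries.

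Markers of other cells that express CEACAMs gave little. Of 8 granulocyte and myeloid markers, MPO and FCGR3B had no count, PTPRC and CSF3R had at most 2 in a library, and the summed level spanned 16.1 to 18.1 CPM over V, 20.3 to 21.2 over WT, 19.4 to 24.3 over SA and 22.3 to 28.1 over SD. Most of this sum was CD14, a lipopolysaccharide coreceptor, the 1 called gene of the list, which was higher in SD than in V by 0.60 on the log2 scale (adjusted p = 0.00947, edgeR). In that pair, 5.41% of all tested genes were called. Of 6 colon markers, the sum was 9.80 to 12.9 CPM in all libraries, mostly VIL1 (villin), and CDX2 had 6 counts or fewer in each library. No colon or alveolar marker passed the test in any pair.

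Over the 12 libraries, the genes whose log2 CPM ran most alike to that of CEACAM6 were CYFIP2 (Pearson r = 0.94), WNT7B (0.93) and PFKFB3 (0.93), the highest of 13461 genes searched. The 12 points share 4 lines, so the likeness is mostly one of 4 line means. CYFIP2, a subunit of the actin-regulating WAVE complex, had means of 72.3, 62.3, 56.1 and 51.6 CPM in V, WT, SA and SD. WNT7B, a Wnt ligand, had 311, 279, 273 and 239 CPM, and PFKFB3, a regulator of glycolysis, 274, 268, 256.3 and 229 CPM. All 3 had the order of CEACAM6, which the choice by r favours, with a smaller range relative to the V level. The most alike to CEACAM1 were GTSE1 (0.85), NAPB (0.84) and MIR497HG (0.82), and to CEACAM19 HUNK (0.87), DTX2 (0.87) and POGZ (0.86). Neither of these members was called in any pair, and GTSE1 had 53.2, 53.0, 52.3 and 53.2 CPM in V, WT, SA and SD. Their r values are the highest of 13461 over 12 libraries, may be noise and were not tested. Among the members themselves, r was -0.01 between CEACAM1 and CEACAM6, 0.53 between CEACAM6 and CEACAM19 and -0.08 between CEACAM1 and CEACAM19.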

How the data were processed

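Reads were trimmed by the authors with Trimmomatic (0.39) and mapped with RSEM to GRCh38 transcripts, and the authors deposited RSEM's expected counts, not normalized, as 1 column per library. A further deposited table of authors' edgeR fold changes, p-values and FDR was not used. Expected counts were rounded, and edgeR 4.0.16 (R 4.3.3) was run on the 6 libraries of each pair of lines, with filterByExpr (minimum count 10, minimum total 15), TMM and the two-sided quasi-likelihood test. P-values were adjusted by Benjamini and Hochberg over all genes tested, with 0.05 as threshold. Library totals were 7844045 to 11765576. CPM correlations used a prior count of 2. The members and gene lists were chosen with earlier results of these data known. All members are named, and from each list the called genes, at most 5 per pair by adjusted p, and the 3 genes most alike to each tested member; other listed genes were named after their values were seen. The values of 1 gene of the partner list are not reported here, and it stays in the counts of that list and is left out of the plot. The lists were other CEACAM genes, PSG genes, partners and signalling, GPI anchor, transcription factors, neighbours within 200 kb, and markers of 4 cell types.

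Alternatives were every gene with a count, at least 10 counts in every library, DESeq2 1.42.0 and its size factors, all libraries in one fit, the replicate block, a 500 kb window and each library left out. Correlations of same-numbered libraries were low, at -0.0375 to 0.106, and 1 of 18 exceeded 0.1. The replicate block nevertheless changed the number of calls over all genes, as given below. Whether same-numbered libraries were handled together is not stated and was not tested. No library was a copy of another. Tests were tried on simulated data, and the outcome of that trial is not given here. Deposited spans matched GENCODE v44 for 53489 genes. Promoters are from RefSeq (GRCh38.p14), and 4 of 5 members matched. Figures were drawn with matplotlib 3.10.9.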

Additional observations from a re-analysis of the deposited data

How the results depend on the processing

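CEACAM6 kept its call in the 5 pairs and its lack of one in WT against SA under every setting that gave a value, with a log2 fold change of -1.21 to -1.09 in SD against WT, -0.93 to -0.77 in SD against SA, 0.22 to 0.38 in WT against SA and -1.80 to -1.67 in SD against V. DESeq2 gave CEACAM6 no adjusted p in 2 pairs (SD with WT, WT with SA), because its filter dropped genes under a mean count of 769.5 and 1138. DESeq2 without that filter, an alternative chosen after seeing the data, gave a log2 fold change of -1.15 in SD against WT and kept the call. CEACAM19 and CEACAM1 were called under no setting. With single libraries left out, the sign of CEACAM1 changed in all 6 pairs (-0.48 to 0.20 in SD against WT) and that of CEACAM19 in 3 of 6. With every gene that had a count tested, 8 to 14 genes of the family were tested in a pair and CEACAM6 was the only one called.

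Over the 6 pairs together, the partner list had 10 calls, but 4 without V replicate 1, the lowest of 4 to 11 with single libraries left out. The GPI list had 2 calls, 1 with DESeq2 without its filter, and 1 to 2 with single libraries left out, where 1 was given without V replicate 1, 2 or 3, WT replicate 3, SA replicate 2 or SA replicate 3. The transcription factors had 3 calls, 6 with DESeq2, and 1 to 4 with single libraries left out, the lowest without WT replicate 1. The neighbours had 3 calls, 7 with every gene tested, 5 with the stricter filter, 5 with all libraries in one fit, 5 with the replicate block, 14 within 500 kb, and 1 to 5 with single libraries left out, 1 without V replicate 1 and 5 without SD replicate 1. The block changed no call of a member, and moved the calls over all genes from 105 to 245 in SD against WT, from 33 to 165 in SD against SA, from 12 to 25 in WT against SA, from 774 to 507 in WT against V, from 1069 to 1345 in SA against V and from 806 to 664 in SD against V. Depth limits CEACAM1, at 36 counts or fewer a library, and CEACAM5 and CEACAM7, with 3 or fewer.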

Other observations

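The family also has pseudogenes in the table. Of 13 CEACAM and PSG pseudogenes, 11 had no count, CEACAM22P had 13 counts over 7 libraries and CEACAMP10 had 2. The antisense gene LIPE-AS1 across CEACAM1 had means of 2.55 ± 0.396, 1.62 ± 0.0832, 3.48 ± 0.679 and 2.50 ± 0.924 CPM for V, WT, SA and SD (± standard deviation, n = 3 libraries each), while CEACAM1 was at 2.26 ± 0.593, 2.85 ± 1.27, 2.54 ± 0.324 and 2.55 ± 0.814.

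ENSG00000279095, which has no symbol in the table and lies on the plus strand inside the span of CEACAM19, had 35 counts in 1 WT library and 7 in 1 SD library and none in the other 10. It was noticed after its values were seen. PVR, which overlaps CEACAM19 on the same strand, stood at 199.7 ± 9.11, 191 ± 9.37, 185 ± 7.41 and 187 ± 4.21 CPM in the same order.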
